A study of Homo sapiens with 4 samples.

Results

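The tubulin genes described here, 10 of the 19192 genes counted, were followed through total RNA and ribosome footprints of SW480 cells. They were chosen by name and are 3 alpha-tubulin genes (TUBA1A, TUBA1B, TUBA1C), 6 beta-tubulin genes (TUBB, TUBB2A, TUBB2B, TUBB3, TUBB4B, TUBB6) and the gamma-tubulin gene TUBG1. SW480 is an established human colorectal adenocarcinoma line. Cells were either wild type or labelled IMP1-/-, that is, lacking the RNA-binding protein encoded by IGF2BP1. Each genotype gave 1 library of ribosome-protected fragments, the mRNA pieces shielded by translating ribosomes, and 1 library of fragmented total RNA, each from 3 pooled culture plates. No treatment or time course was applied per the labels, and the labels do not say how the knockout was made or whether it is 1 clone, so genotype cannot be told apart from clone or culture. There is 1 library per group, so differences were not checked against replicates, and every interval given covers counting error only.

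Alpha- and beta-tubulin form the dimer from which microtubules are built, and gamma-tubulin sits in the ring complex that seeds new microtubules at centrosomes. Humans carry several alpha and beta isotypes that differ most at their acidic C-terminal tails, where tubulin is modified and motors and other proteins bind. Cells also adjust tubulin mRNA to the supply of dimers: when soluble tubulin is in excess, the factor TTC5 recognises the nascent N-terminus of alpha- and beta-tubulin on the ribosome and the mRNA is degraded. The level and the translation of tubulin mRNAs are therefore coupled in normal cells.

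The opening codons, which encode the N-terminus read in this autoregulation, were the same in all 3 alpha genes. Among the beta genes the first 4 codons varied in their bases but encoded the same residues, Met-Arg-Glu-Ile. The first 24 coding bases of the counted transcripts (GENCODE release 29, GRCh38) are shown 5′ to 3′ with the first 4 codons in capitals, to show how the alpha, beta and gamma starts differ.
TUBA1A, TUBA1B and TUBA1C: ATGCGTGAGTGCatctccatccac
TUBB: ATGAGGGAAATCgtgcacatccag
TUBB4B: ATGAGGGAAATCgtgcacttgcag
TUBB3 and TUBB6: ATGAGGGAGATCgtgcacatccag
TUBB2A: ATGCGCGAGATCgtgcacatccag
TUBB2B: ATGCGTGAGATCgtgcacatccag
TUBG1: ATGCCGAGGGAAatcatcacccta
Among 19113 counted transcripts with a coding start, the alpha start of 12 bases was carried by those 3 genes and no other. The start ATGAGGGAAATC was carried by TUBB and TUBB4B alone, and ATGAGGGAGATC by TUBB3, TUBB6 and TUBB8.

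The coding ends of the beta genes, which encode the isotype-specific tails, are shown because they tell which of them short reads can separate. The last 60 coding bases are printed 5′ to 3′ with the stop codon in capitals.
TUBB: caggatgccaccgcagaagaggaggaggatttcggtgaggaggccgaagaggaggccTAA
TUBB4B: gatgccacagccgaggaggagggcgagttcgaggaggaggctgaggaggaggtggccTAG
TUBB2A: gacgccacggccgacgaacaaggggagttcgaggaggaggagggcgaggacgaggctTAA
TUBB2B: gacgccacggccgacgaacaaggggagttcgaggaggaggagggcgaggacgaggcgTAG
TUBB3: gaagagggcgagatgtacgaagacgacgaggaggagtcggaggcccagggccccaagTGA
TUBB6: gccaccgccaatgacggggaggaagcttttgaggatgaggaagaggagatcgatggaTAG
TUBB2A and TUBB2B had 2 differences over these bases. Compared base by base without gaps, TUBB and TUBB4B differed at 27 of the 60 positions, and TUBB3 and TUBB6 at 38. Coding lengths differ between TUBB and TUBB4B and between TUBB3 and TUBB6, so an offset enters these counts. They do not measure how far the aligned tails differ.

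Reads could be assigned to 1 gene with unequal certainty. Coding sequences were 97.2% identical between TUBA1A and TUBA1B, 96.8% between TUBA1B and TUBA1C, and 98.1% between TUBB2A and TUBB2B, whose longest exact shared run was 725 bases. TUBB was 84.7% identical to TUBB2A, and its longest exact run in common with any other member was 35 bases; the one shared with TUBB2A, TUBB2B and TUBB3 starts at coding base 1198:
shared run: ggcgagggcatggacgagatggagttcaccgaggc
Of all windows of 28 bases, about the length of a footprint, 74.0% in TUBA1A, 80.7% in TUBA1B, 74.1% in TUBA1C and 77.0% in each of TUBB2A and TUBB2B also occurred in another of the 10 genes. That share was 23.7% for TUBB3, 11.8% for TUBB6, 11.4% for TUBB4B, 1.76% for TUBB and 0% for TUBG1. On the sense strand and outside the gene's own locus, a further 53.7% of TUBB windows occurred only in annotated genes that were not counted, chiefly the processed copy TUBBP1, and 45.2% of TUBG1 windows occurred in its paralog TUBG2. How reads that match several genes were counted is not given in the sources used here, so the split among the alpha genes and between TUBB2A and TUBB2B is uncertain, and sums over families are given beside single genes. Genes annotated on the opposite strand overlap TUBA1A, TUBA1B, TUBA1C, TUBB, TUBB4B and TUBG1, and whether strand was used in counting is likewise unstated.

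**Figure D1:**
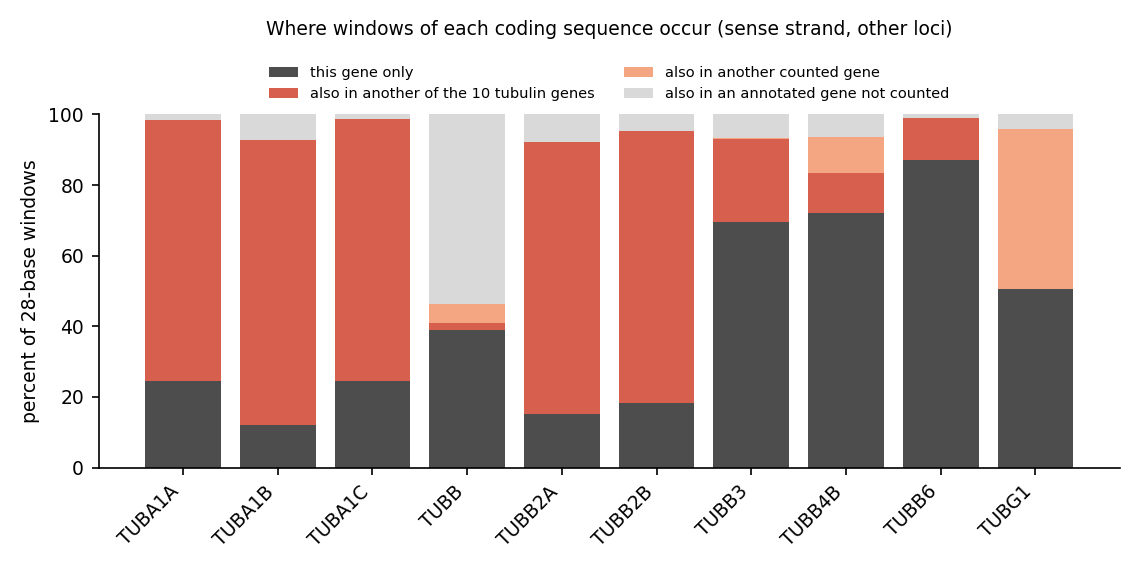
Stacked bars give, for each gene on the x axis, the percent of its 28-base coding windows (y axis) found in that gene only, in another of the 10 tubulin genes, in another counted gene or in an annotated gene that was not counted, on the sense strand and at other loci. TUBB6 (87.1%), TUBB4B (72.0%) and TUBB3 (69.5%) have the most windows of their own on this measure, which was chosen after seeing the data; counting both strands and overlapping genes TUBB3 has 2.41%, the fewest, and TUBA1B 4.29%.

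Library totals ran from 3778316 to 5551479 counts. For IGF2BP1, the labelled target, 598 RNA reads (wild type) and 571 (library labelled as knockout) were counted, with 285 and 149 footprints, so the second genotype is called knockout-labelled throughout. One label of the wild-type RNA sample names the line SW840, though the source of the same sample is given as SW480. It was used as SW480, enters every RNA and TE change, and has no part in the footprint changes. Epithelial identity rested on KRT18 (15373 to 52179 reads over the 4 libraries), KRT8 and EPCAM, while KRT20 and LGALS4 had 0 reads in each library. The intestinal marker VIL1 had 160 and 335 reads in wild-type RNA and footprints and 2 and 0 in the knockout-labelled ones. Of 7 epithelial markers measured in RNA, 4 (VIL1, CDX2, KRT8 and KRT18) passed the 1.5-fold rule defined with the RNA results as lower in knockout-labelled RNA and 1, CDH1, as higher; their part in the tubulin values was not tested. Of 9 fibroblast markers 8 were at or below 3 reads in each RNA library, 9 in wild-type and 6 in knockout-labelled footprints, and their summed reads were 12 and 31 in RNA and 2 and 18 in footprints, wild type first. Neuronal markers with 0 reads, out of 11 counted, numbered 6 and 5 for RNA and 6 and 3 for footprints, wild type first. Only 3 had enough footprints to be measured, with SYP called higher (6 and 94 footprints) and SYT1 lower (55 and 25). SNAP25, not called in footprints (36 and 55), was called lower in RNA (54 and 20 reads) and higher in TE (1.87, 0.92 to 2.81). SYT1 was called lower in TE (-0.91, -1.72 to -0.11). The 9 leukocyte and endothelial markers summed to 74 and 45 reads in RNA and 7 and 47 in footprints, wild type first, with PTPRC and CD3E at 0 in each library. The part of these markers in the tubulin values was not tested. The summed neuronal markers were at 27.6 and 28.8 CPM (counts scaled to library total) in RNA, wild type first, and 28.3 and 53.5 in footprints; their part in the TUBB3 values below was not tested.

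The first question the design puts to these genes is whether tubulin mRNA differed between the genotypes. All 10 genes had less RNA in the knockout-labelled library, each with an interval below no change. Among all genes measured 50.8% had less RNA there. The beta genes TUBB and TUBB3 were about 2-fold lower and TUBB2B and TUBB2A just past 1.5-fold. The other beta genes, TUBB4B and TUBB6, differed by less, as did the alpha genes and TUBG1. A gene was called lower when it was at least 1.5-fold lower after scaling and its interval excluded no change; 4 of 10 members were called lower and 0 higher, against 17.8% lower and 16.2% higher (34.0% either way) among the 10875 genes with at least 50 RNA reads. With libraries scaled by their totals 3 were called lower, since TUBB2A, at -0.58, then missed 1.5-fold. At 2-fold, 2 members were lower, against 8.35% lower and 6.39% higher (14.7% either way) of all genes. The median RNA change of the 10 was -0.42 on the log2 scale, against -0.01 over all genes measured.

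TUBB (chromosome 6, 30720201 to 30725426, plus strand, 4 exons), the main beta isotype of dividing cells, had 930.9 CPM in wild-type RNA against 450.5 in the knockout-labelled RNA library. The scaled change was -1.07 (log2, 95% interval -1.14 to -0.99), or 2.09-fold lower. TUBB3 (chromosome 16, 89923279 to 89936097, plus strand), the isotype typical of neurons and also made by many carcinomas, had 49.7 and 24.3 CPM, a change of -1.05 (-1.37 to -0.74). A gene annotated as AC092143.1 on the same strand shares 95.9% of TUBB3 windows, so reads of that transcript cannot be told apart from TUBB3.

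TUBB2B (chromosome 6, 3224261 to 3227735, minus strand) had 182.5 and 116.2 CPM in RNA, wild type first, a change of -0.67 (-0.82 to -0.52). Its near-copy TUBB2A (3153669 to 3157526, minus strand), 66734 bases away, had 110.1 and 73.4, a change of -0.60 (-0.80 to -0.41). Reads of the pair summed were 1.56-fold lower, so the call did not depend on how reads were split between them. Both are isotypes abundant in brain.

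The other beta genes were lower by less than the call required. TUBB4B (chromosome 9, 137241213 to 137243707, plus strand), a broadly expressed isotype used in cilia, had 428.2 and 343.4 CPM, a change of -0.34 (-0.43 to -0.25). TUBB6 (chromosome 18, 12308059 to 12326619, plus strand) had 94.6 and 74.8, a change of -0.36 (-0.55 to -0.16). These are the members whose windows were most often unique.

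The alpha genes lie together on chromosome 12 and encode the alpha-tubulins found in most cells. TUBA1B (49127782 to 49131395, minus strand), the most abundant tubulin mRNA per coding length here, had 1275 and 941.5 CPM in RNA, a change of -0.46 (-0.51 to -0.40). TUBA1C (49264907 to 49274603, plus strand) had 821.4 and 642.5, a change of -0.37 (-0.44 to -0.31), and TUBA1A (49184959 to 49188899, minus strand) had 461.5 and 397.6, a change of -0.23 (-0.32 to -0.15). TUBG1 (chromosome 17, 42609676 to 42615234, plus strand, 11 exons) had 70.8 and 60.2, a change of -0.25 (-0.48 to -0.03). None of these 4 reached 1.5-fold.

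**Figure D2:**
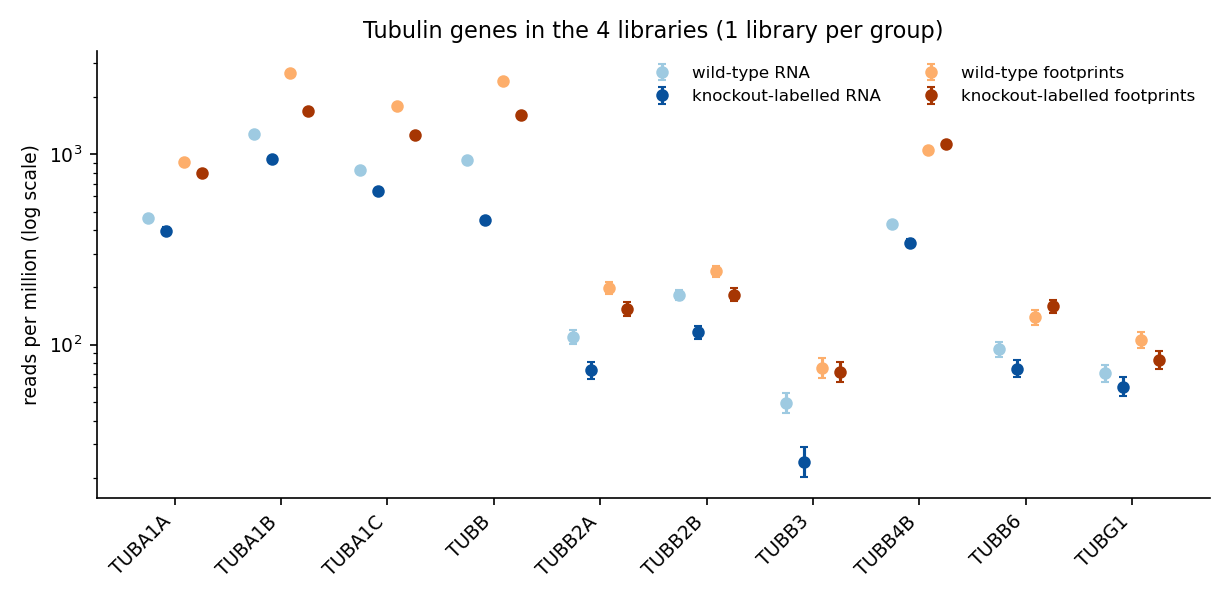
Points give CPM (y axis, log scale, unscaled) of the 10 genes in wild-type RNA, knockout-labelled RNA, wild-type footprints and knockout-labelled footprints, 1 library each, with bars for the exact Poisson 95% interval. Each gene's knockout-labelled RNA point is below its wild-type point, whereas TUBB4B and TUBB6 have the higher footprint point in the knockout-labelled library.

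In ribosome footprints TUBA1B, TUBB and TUBA1C differed most. The alpha genes, TUBG1 and 4 of 6 beta genes had fewer footprints in the knockout-labelled library, though for TUBB3 the interval included no change, and TUBB4B and TUBB6 had more. By the 1.5-fold rule 2 of 10 members, TUBA1B and TUBB, were called lower and 0 higher, against 20.1% lower and 19.0% higher (39.1% either way) among 9794 genes with at least 50 footprints. At 2-fold, 0 members were called, against 9.87% lower (18.9% either way) of all genes. The median footprint change of the 10 was -0.36, against -0.0006 over all genes measured, of which 50.3% had fewer footprints.

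TUBA1B had 2678 CPM in wild-type footprints against 1689, a change of -0.67 (-0.71 to -0.62), or 1.59-fold lower. TUBA1C had 1790 and 1255, a change of -0.51 (-0.57 to -0.46) and 1.43-fold, just short of the call. TUBA1A had 906.5 and 792.4, a change of -0.20 (-0.27 to -0.13), the smallest of the 3. Since TUBA1A and TUBA1B share most of their windows, the difference between them rests on the 24.5% and 11.96% of windows that are their own (sense strand, other loci) and on any unstated rule for shared reads.

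TUBB had 2421 and 1597 footprint CPM, a change of -0.60 (-0.65 to -0.56), or 1.52-fold lower, close to the threshold. TUBB4B had 1058 and 1132, a change of 0.10 (0.03 to 0.16), and TUBB6 had 139.3 and 159.3, a change of 0.19 (0.02 to 0.36). For TUBB4B and TUBB6 the RNA interval lay below no change and the footprint interval above it, though neither footprint difference approached 1.5-fold.

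TUBB3, whose RNA was 2.07-fold lower, had 75.6 and 72.3 footprint CPM, a change of -0.07 (-0.31 to 0.18). TUBB2A had 199.6 and 154.3, a change of -0.37 (-0.53 to -0.22), and TUBB2B had 242.4 and 183.4, a change of -0.40 (-0.55 to -0.26). TUBG1 had 106.3 and 83.4, a change of -0.35 (-0.57 to -0.14). The footprint difference of TUBB3 was not detectable at this depth.

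**Figure D3:**
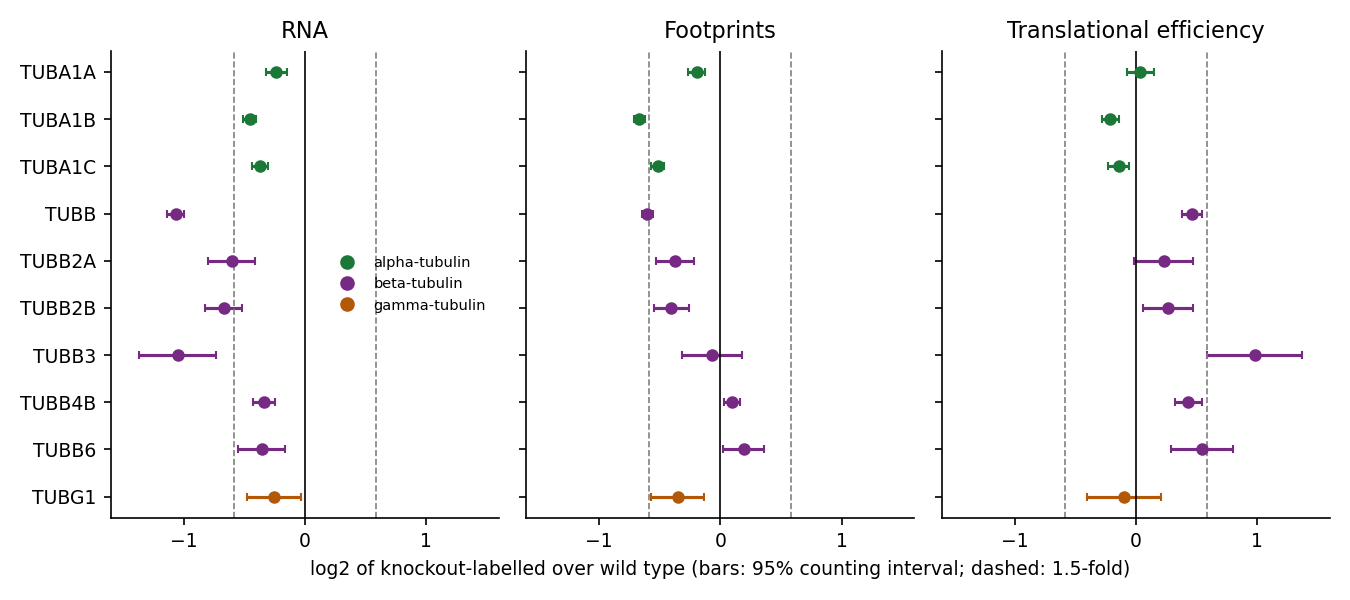
Points give, on a log2 scale (x axis, knockout-labelled over wild type), the change in RNA, footprints and translational efficiency of each gene, with 95% counting intervals, a solid line at no change and dashed lines at 1.5-fold. All RNA points lie left of no change, and all 6 beta points lie right of it for translational efficiency.

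Translational efficiency (TE), the footprint change minus the RNA change, had a higher point value in each beta member than in any alpha member. The interval of TUBA1A overlapped those of TUBB2A and TUBB2B. All 6 beta genes had a positive TE change, from 0.23 for TUBB2A to 0.98 for TUBB3, and for 5 of the 6 the interval lay above no change. Of the alpha members TUBA1B was at -0.21 (-0.28 to -0.14), TUBA1C at -0.14 (-0.23 to -0.06) and TUBA1A at 0.04 (-0.07 to 0.15). The order of alpha below beta did not extend to the alpha genes measured outside the members, TUBA4A at 0.43 (0.26 to 0.60) and TUBA8 at 2.02 (1.04 to 3.00). TUBG1 was at -0.10 (-0.40 to 0.20). The median over all 9598 genes measured in both kinds of library was 0.03, and 47.8% of them had a negative TE change.

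By the 1.5-fold rule only TUBB3 was called for TE among the 10, with a change of 0.98 (0.59 to 1.37), against 15.8% higher and 13.9% lower (29.7% either way) over all genes. At 2-fold, 0 members were called, against 6.47% higher and 6.27% lower (12.7% either way). TUBB6 was next at 0.55 (0.29 to 0.80), then TUBB at 0.46 (0.38 to 0.55) and TUBB4B at 0.43 (0.32 to 0.54). TUBB2B was at 0.27 (0.06 to 0.47) and TUBB2A at 0.23 (-0.01 to 0.47). Among all genes measured the TE change of TUBB3 stood at percentile 93.04 and that of TUBB at 77.0, while TUBA1B stood at 34.2. The TE change subtracts the RNA change, so a gene with lower RNA and equal footprints has a higher value by construction.

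**Figure D4:**
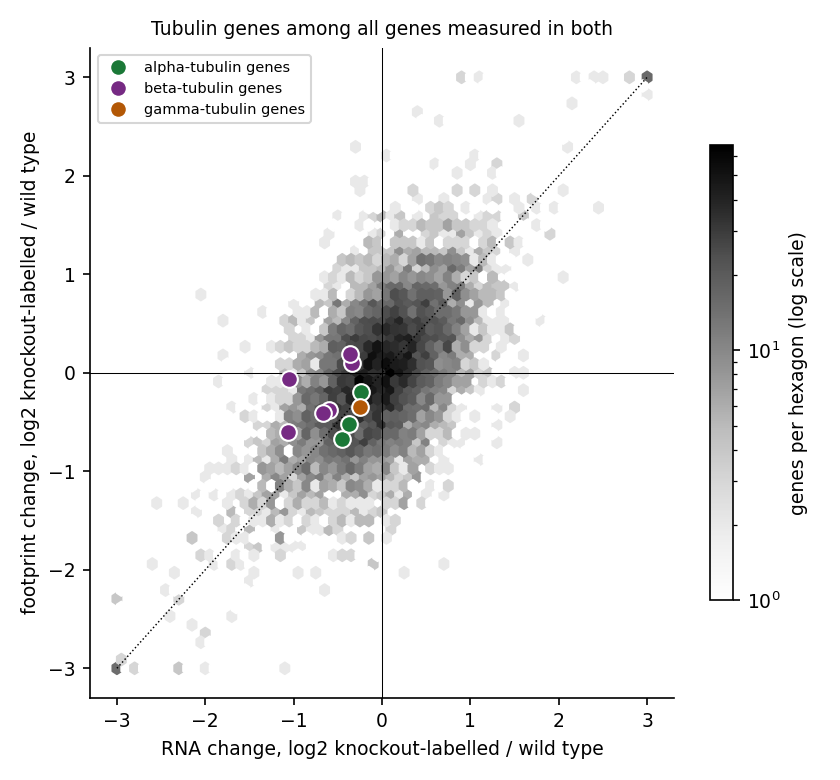
Grey hexagons hold all 9598 genes measured in RNA and footprints, placed by RNA change (x axis) and footprint change (y axis), both log2 knockout-labelled over wild type with values beyond 3 drawn at 3. The 6 beta-tubulin genes lie above the dotted line of equal change, TUBA1B, TUBA1C and TUBG1 below it and TUBA1A beside it.

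Reads were also summed over isotypes, so that the split of shared reads within a family does not enter. A rule that drops shared reads or counts them more than once would still enter the sums, and the rule is not stated. Summed beta-tubulin RNA was at 59.5% of wild type (change -0.75, -0.80 to -0.70) and alpha-tubulin RNA at 76.4% (-0.39, -0.42 to -0.35). In footprints the order was reversed, with beta at 79.6% (-0.33, -0.36 to -0.29) and alpha at 69.4% (-0.53, -0.56 to -0.50). The TE change was 0.42 (0.36 to 0.48) for summed beta and -0.14 (-0.19 to -0.09) for summed alpha reads, a difference of alpha minus beta of -0.56 (-0.64 to -0.48). Beta without TUBB had a net footprint change of -0.01 (-0.06 to 0.04). In that sum the lower TUBB2A and TUBB2B were offset by the higher TUBB4B and TUBB6. Counted in reads, the net beta footprint difference (15644 and 12462, wild type first) was thus nearly that of TUBB (9158 and 6034). The 10 genes together took 0.442% of wild-type and 0.312% of knockout-labelled RNA reads, and 0.962% and 0.712% of footprints.

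Since the dimer pairs alpha with beta, the ratio of alpha to beta reads per kilobase of coding sequence was compared over the libraries. It was 1.41 (1.37 to 1.44) in wild-type RNA and 1.81 (1.75 to 1.87) in knockout-labelled RNA, but 1.28 (1.26 to 1.31) and 1.12 (1.09 to 1.15) in footprints. In RNA the ratio was thus higher in the knockout-labelled library, and in footprints lower and nearer to 1. Any dropping or repeated counting of shared reads would enter these ratios, and its part was not tested. Adding the other counted alpha and beta genes gave read ratios of 1.49 and 1.95 in RNA and 1.39 and 1.29 in footprints, wild type first.

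Within the beta family, TUBB made up less and TUBB4B more of the reads in the knockout-labelled libraries. The TUBB share was 51.8% (Clopper-Pearson 95% interval 50.8 to 52.8) of beta RNA reads in wild type and 41.6% (40.3 to 42.9) in the knockout-labelled library, and 58.5% (57.8 to 59.3) and 48.4% (47.5 to 49.3) of beta footprints. TUBB4B went from 23.8% to 31.7% of RNA and from 25.6% to 34.3% of footprints. Which of the pair was larger depended on the length used. Per kilobase of whole transcript TUBB4B (39.4%) exceeded TUBB (31.7%) in knockout-labelled RNA, whereas TUBB (41.3%) exceeded TUBB4B (31.0%) in wild-type RNA. There were 0.460 TUBB4B reads per TUBB read in wild-type RNA and 0.437 in wild-type footprints, against 0.762 and 0.709 in the knockout-labelled libraries. The shift between these isotypes was thus similar in size in RNA and in footprints.

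The remaining beta isotypes stayed minor. TUBB2B held 10.2% and 10.7% of beta RNA reads, wild type first, but 5.86% and 5.56% of beta footprints, and TUBB6 held 5.27% and 6.91% of RNA and 3.37% and 4.83% of footprints. TUBB3 was the smallest, at 2.77% and 2.25% of RNA and 1.83% and 2.19% of footprints. Within alpha, TUBA1B held 49.8% and 47.5% of RNA reads and 49.8% and 45.2% of footprints, and TUBA1A held 18.0% and 20.1% of RNA and 16.9% and 21.2% of footprints.

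**Figure D5:**
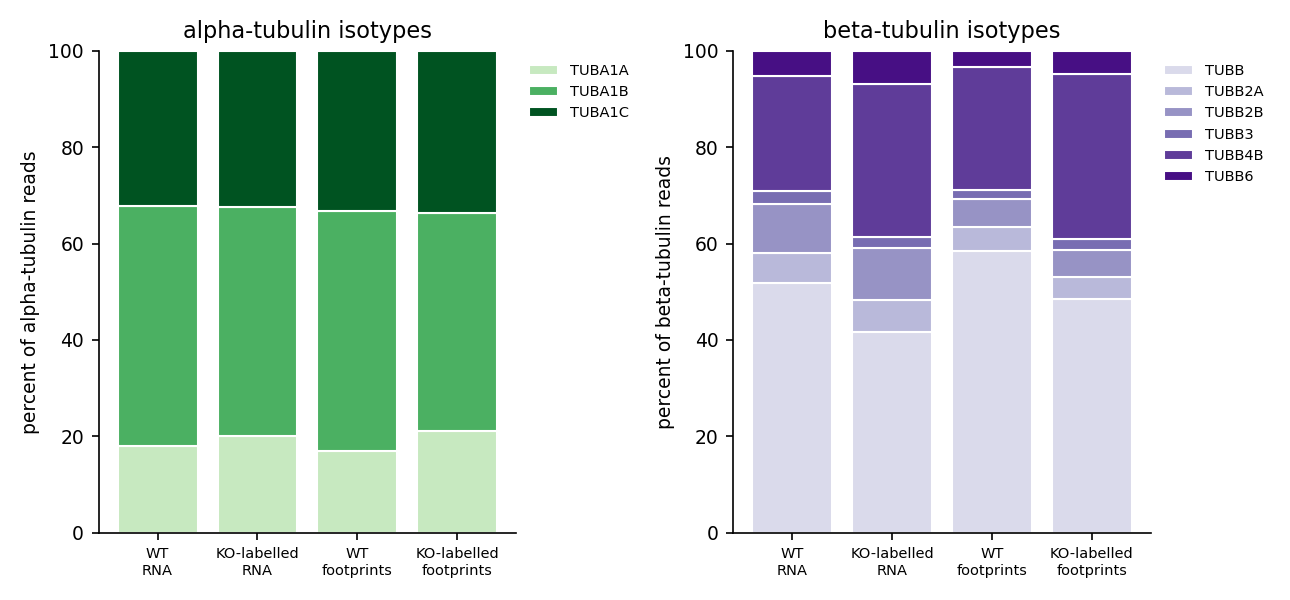
Stacked bars give each isotype's percent of alpha-tubulin reads (left) and beta-tubulin reads (right) on the y axis in the 4 libraries on the x axis, labelled WT for wild type and KO-labelled for knockout-labelled. TUBB is smaller and TUBB4B larger in the knockout-labelled bars, from 51.8% to 41.6% and from 23.8% to 31.7% in RNA.

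Levels of different genes were compared as CPM per kilobase of coding length. In wild-type RNA the order was TUBA1B (942.3), TUBB (698.9), TUBA1C (609.8), TUBA1A (341.1), TUBB4B (320.7), TUBB2B (136.7), TUBB2A (82.4), TUBB6 (70.7), TUBG1 (52.3) and TUBB3 (36.8). The neighbours TUBA1A and TUBB4B, and TUBB2A and TUBB6, did not differ beyond their counting intervals. In knockout-labelled RNA TUBA1C (477.0) stood above TUBB (338.2), and TUBB6, TUBB2A and TUBG1 had overlapping intervals between neighbours. Per kilobase of whole transcript, TUBB (168.7) in that library stood below TUBA1C (214.1), TUBA1A (210.7) and TUBB4B (209.8). The RNA order thus depends on the length used, and the counted region is not stated. In footprints TUBA1B and TUBB led both libraries, clearly apart in wild type (1979 and 1818) and with overlapping intervals in the knockout-labelled library (1248 and 1199), and TUBB3 was last in all 4, though in knockout-labelled footprints its interval overlapped that of TUBG1 (53.5 and 61.6).

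The TE level, the log2 ratio of footprint over RNA CPM of a gene within a genotype, was above the median gene for all 10 members. In wild type it ran from 0.41 for TUBB2B to 1.38 for TUBB, percentiles 59.2 and 93.9 of 7884 genes with at least 50 reads of each kind. TUBB4B was at 1.30 (percentile 92.6), and TUBA1A, TUBA1B and TUBA1C at 0.97, 1.07 and 1.12. In the knockout-labelled libraries TUBB was at 1.83 (percentile 98.0), TUBB4B at 1.72 (97.1) and TUBB3 at 1.57 (95.4, against 67.8 in wild type), while TUBA1B was at 0.84 (75.9). MTRNR2L and mitochondrial genes took 14.4% and 14.1% of RNA counts but 2.98% and 3.89% of footprints, which lifts every other gene's TE level by a shared amount. Across genes the TE level was lower where untranslated regions made up more of the transcript, with a wild-type median of 0.48 in the 1969 genes with the smallest share and -0.25 in the 1969 with the largest. TUBA1C and TUBB have 1376 and 1029 bases of 3′ untranslated region and TUBA1A 51, and its part in the order of TE levels between members was not tested.

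Promoters are shown for TUBB and TUBB4B, the leading beta isotypes. Their shares of beta-tubulin reads differed between the genotypes in opposite directions and were closer in the knockout-labelled libraries. RefSeq sequence (GRCh38.p14) was matched for all 10 members, and the stretch before both the RefSeq and the counted transcript start is printed 5′ to 3′ on the gene's strand, with capitals for the motifs searched: CCAAT (the box bound by NF-Y), TTTGAA (the core of the cell cycle homology region, found in many mitotic genes) and TATAAA, on both strands.
TUBB promoter, chr6:30720102-30720200, plus strand: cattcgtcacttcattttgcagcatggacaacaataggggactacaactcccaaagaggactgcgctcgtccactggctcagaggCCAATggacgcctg
TUBB4B promoter, chr9:137241037-137241212, plus strand: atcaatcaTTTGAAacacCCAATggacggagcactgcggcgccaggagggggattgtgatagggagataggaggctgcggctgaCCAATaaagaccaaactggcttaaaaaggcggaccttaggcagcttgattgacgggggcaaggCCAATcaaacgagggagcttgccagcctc
In the 250 bases before the RefSeq start, CCAAT was found in 8 of 10 members and in 32.0% of all 35116 promoters in the table. TUBB had 1 copy and TUBB4B 3, while TUBA1B and TUBB2A had none in this window. TTTGAA was found for TUBA1C and TUBB4B (13.3% of all promoters) and TATAAA for TUBB2A (10.7%). The counted transcripts of TUBA1C and TUBB6 start 175 and 182 bases before the RefSeq start. Their CCAAT matches lie after that counted start, and no TTTGAA of TUBA1C lies wholly before it. The motifs do not overlap each other in the printed stretches. These are letter matches, and the libraries hold no measurement of the promoters.

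Among other tubulin genes, 11 of 13 listed were counted and 5 had enough reads. TUBA4A, an alpha isotype not among the 10, had 854 and 791 RNA reads and 1487 and 2064 footprints, wild type first, with changes of 0.04 (-0.10 to 0.18) and 0.47 (0.38 to 0.57), so its footprints went the other way from the 3 alpha members. TUBE1, encoding epsilon-tubulin of centrioles, was called higher in RNA (75 and 139 reads, 2.05-fold) and footprints (106 and 165, 1.55-fold). TUBB8, which shares 10.8% of TUBB4B windows, was called lower in RNA (146 and 84 reads) and higher in TE (0.92, 0.40 to 1.44). TUBA8 had 45 and 21 RNA reads and 28 and 60 footprints, called lower and higher, and was called higher in TE. TUBG2, the paralog of TUBG1, had changes of 0.26 (-0.08 to 0.60) in RNA and 0.32 (-0.003 to 0.65) in footprints. These point values were opposite in sign to those of TUBG1, and the part of reads shared by the pair was not tested.

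Partners of gamma-tubulin in nucleation, the ring complex and augmin, included 9 of 19 measured genes called lower in RNA, 0 called higher, at a median change of -0.58, against 17.8% lower and 16.2% higher of all genes. HAUS8 (70 and 15 reads) and HAUS5 (148 and 54), subunits of augmin, and the ring complex genes TUBGCP2 (378 and 169) and TUBGCP5 (126 and 57) led them. Footprints were called lower for 9 of 20 and higher for 4 (median -0.36), against 20.1% and 19.0% of all genes. MZT1, a small subunit of the ring complex, had 209 and 86 footprints, and its relative MZT2A had 242 and 409. In TE 7 of 19 were higher and 2 lower (median 0.34; all genes 15.8% and 13.9%), MZT2A among the higher at 1.27 (0.96 to 1.59).

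The machinery that folds tubulin, prefoldin, the CCT chaperonin and the tubulin cofactors, had 3 of 21 genes called lower in RNA and 2 higher (median -0.18), near the 17.8% and 16.2% of all genes. In footprints 3 were higher and 0 lower (median -0.03), against 19.0% and 20.1%. The chaperonin subunit CCT2 had 1176 and 583 RNA reads but 1388 and 1347 footprints, and the cofactor TBCB 278 and 136 RNA reads but 377 and 391 footprints; both were called higher in TE, as were TBCEL and PDCL3, with TBCE lower, so 4 of 21 were higher and 1 lower against 15.8% and 13.9% of all genes. Prefoldin PFDN2 was 2.05-fold higher in RNA. In the autoregulation list, TTC5 had 128 and 94 RNA reads and 62 and 48 footprints, with changes of -0.29 (-0.69 to 0.10) and -0.37 (-0.94 to 0.20). Of the 11 genes of that list measured, most of them CCR4-NOT deadenylase subunits, 0 were called in RNA at 1.5-fold, against 34.0% of all genes. CNOT3 and CNOT7, 2 of the 11, were lower in footprints, near the 20.1% of all genes, and in TE 4 were lower and 1, SCAPER, higher, against 13.9% and 15.8%.

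Of the enzymes that modify tubulin, 2 of 14 were called higher and 1 lower in RNA (median -0.17), against 16.2% and 17.8% of all genes. In footprints 3 of 12 were higher and 2 lower (median 0.04), near the 19.0% and 20.1% of all genes. HDAC6, the tubulin deacetylase, had 147 and 282 RNA reads and 136 and 236 footprints, and the acetyltransferase ATAT1 had 13 and 52 footprints. The glutamylase TTLL1 had 10 and 59 RNA reads. In TE 0 of 11 were higher and 3 lower (median -0.30), against 15.8% and 13.9%.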

How the data were processed

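The authors deposited raw counts (whole numbers) for 19192 gene symbols, 1 transcript each, in 4 libraries. Fragments of 18 to 34 nt (footprints) or 18 to 50 nt (RNA) carried random molecular identifiers and were amplified over 15 PCR cycles, per the labels' protocols. Tools listed in the submitters' processing notes are Bowtie 1.1.2, cutadapt 1.10 and HISAT2 2.1.0, with build GRCh38. Which region was counted, and how multi-mapping reads and identifiers were handled, is not given in the sources used here. Groups came from the library titles.

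Libraries of 1 kind were scaled together by TMM (edgeR 4.0.16, R 4.3.3). Changes are log2 ratios with a prior count of 0.5 and exact conditional 95% intervals; TE intervals use reciprocal counts. A gene counted as measured when its 2 libraries of 1 kind held 50 reads or more, and was called at 1.5-fold with an interval excluding no change. With 1 library per group there are 0 residual degrees of freedom and no test. PCR reads are not independent molecules. The intervals were tested on simulated Poisson counts, which hold counting error only and so cannot test for spread between libraries.

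Of 19192 transcripts, 19176 were found in GENCODE release 29. Windows were matched exactly to all its transcripts, and coding rather than protein identity was computed (Biopython 1.88, global alignment). Python 3.11.15 with SciPy 1.17.1, NumPy 2.4.6, pandas 2.3.3 and matplotlib 3.10.9 was used. Named genes are the 10 members, IGF2BP1, cell type markers and, from each list, called genes ranked by the bound nearest to no change, at most 4 per direction; TUBA4A, TUBG2 and TTC5 were named after their values were seen. Members and lists were chosen with earlier results of these data known. Alternatives tried were other scalings, read minimums, prior count, fold, lengths and window sizes. A few items are not reported here.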

Additional observations from a re-analysis of the deposited data

How the results depend on the processing

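The RNA, footprint and TE changes of the 10 genes kept their sign, and stayed within their main intervals, under library totals, DESeq2 1.42.0 size factors, totals without the 24 MTRNR2L and mitochondrial genes, other read minimums and a prior count of 5. Under library totals TUBB2A lost its RNA call (-0.58), leaving 3 members called lower in RNA; the calls in footprints (2) and TE (1) numbered the same under each of these. The same held for TUBB2B when TUBB2A and TUBB2B were summed, an alternative chosen after seeing the data. At 2-fold, 2 members (TUBB and TUBB3) were called lower in RNA, 0 lower in footprints and 0 higher in TE, and the genes called in the 6 lists around tubulin went from 31 to 11 in RNA, 38 to 16 in footprints and 33 to 11 in TE; with a minimum of 200 reads the TE count was 21, of fewer genes measured. Per kilobase of whole transcript the alpha to beta ratio was 1.54 and 1.89 in wild-type and knockout-labelled RNA and 1.43 and 1.18 in footprints, the same order. The median log2 TE level of the members went from 0.92 to 0.74 in wild type and from 1.03 to 0.87 in the knockout-labelled libraries without MTRNR2L and mitochondrial counts, and their median percentile in wild type from 81.1 to 75.7 with a minimum of 200 reads. The median share of windows unique to a gene, 20.9%, was 15.6% for windows of 20 bases, 23.7% for 34 bases and 31.8% on the sense strand at other loci, the last chosen after seeing the data. No paired analysis was possible because each group has 1 library, and no library could be left out. A count of 0 allows up to 0.540 to 0.794 CPM in these libraries, for counting error only.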

Other observations

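Proteins that bind, sever or destabilise microtubules, are not covered in the text above. Of 36 such genes measured in RNA 7 were called lower and 4 higher (median 0.01), so the share called was near the 34.0% of all genes. Of 35 in footprints 8 were lower and 5 higher (median -0.27; all genes 20.1% and 19.0%), and in TE 5 higher and 4 lower (median -0.08; all genes 15.8% and 13.9%). TACC3, which strengthens spindle microtubules, had 258 and 61 RNA reads and 364 and 80 footprints, wild type first, and the depolymerising kinesin KIF2C had 395 and 156 RNA reads and 606 and 291 footprints. The microtubule-actin crosslinker MACF1 had 1260 and 641 RNA reads and 291 and 117 footprints. PRC1, which bundles antiparallel microtubules at the midzone, had 764 and 317 footprints. The plus-end protein CLIP1 was higher in RNA (212 and 348) and footprints (116 and 219).

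The microtubule-binding gene MAP7 had 137 and 99 RNA reads but 44 and 170 footprints, a TE change of 2.25 (1.65 to 2.86). TBCEL, related to the tubulin cofactor TBCE, had 119 and 143 RNA reads and 14 and 88 footprints, a TE change of 2.19 (1.32 to 3.07). The severing enzyme SPAST went the other way, with 226 and 257 RNA reads and 148 and 83 footprints (TE change -1.17, -1.63 to -0.70).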
